A study of Mus musculus with 16 samples.

Results

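The IL-6 family was described in mouse cardiac fibroblasts through 9 named genes: the ligand genes Il6, Lif, Il11 and Clcf1, the receptor genes Osmr, Il6st and Il11ra1, the feedback inhibitor Socs3 and the transcription factor Stat3. They are 9 of the 55414 gene identifiers in the count table, and all 9 passed the filter on low counts that left 15285 genes to test. They were chosen by name and family and not by a measured value, but with earlier results of these data known.

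Cytokines of this family bind a receptor chain of their own and then a signalling chain that they share, the product of Il6st. The bound receptors activate JAK kinases, which phosphorylate STAT3, and STAT3 switches on target genes that include Socs3, whose product blocks the receptor complex. In the heart, fibroblasts both secrete these ligands and respond to them, and IL-11 and LIF are known as products of fibroblasts exposed to transforming growth factor beta (TGF-beta), the growth factor that turns fibroblasts into contractile myofibroblasts.

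RNA was sequenced from 16 libraries of cultured cardiac fibroblasts in 4 groups of 4. Cells at passage P2 were starved of serum for 24 h, exposed for 5 h to an adenovirus carrying green fluorescent protein (the GFP group) or Cre recombinase (the Cre group, labelled as a knockout of Has2 exon 2), and collected after 48 h of stimulation with TGF-beta (GFP_TGFB and Cre_TGFB) or without it. Has2 encodes a hyaluronan synthase, and the design asks what its deletion changes. The protocol describes the cells of all groups as Has2fl/fl while the genotype label reads Wild Type C57BL/6J, and which applies is not settled by the labels. Age is not given in the sources used here. The protocol puts the dose of 20 ng/mL in 1 phrase for basic fibroblast growth factor and TGF-beta, so it is not clear from the labels which medium the GFP and Cre groups were given. Below, untreated means only without TGF-beta, and changes with TGF-beta are relative to that medium, whatever it held. Each group holds 1 library from each of 4 preparations, 2 male and 2 female, and the number of hearts in each is not stated.

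Library totals ran from 17.9 to 48.7 M counts. Has2 was 18.7 ± 3.27 counts per M counts (CPM; SD, n = 4) in GFP and 14.7 ± 1.38 in Cre cells without TGF-beta, a log2 difference of -0.35 ± 0.26 (SE; adjusted p = 0.9997, edgeR). With TGF-beta it was 16.8 ± 5.67 and 16.5 ± 6.32 CPM. Counts over the whole gene do not resolve exon 2, so the deletion itself was not checked. Acta2, the smooth muscle actin of myofibroblasts, was 328 ± 63.4 CPM in GFP and 2240 ± 576 in GFP_TGFB cells. All 10 fibroblast markers examined were detected, and of 8 cardiomyocyte markers Actc1 and Nppa were at 0 in every library. Of these 8, 3 passed the filter, and their sum over all 8 was 3.12 to 23.6 CPM, with Tnnt2 at 2.5 to 22.7 CPM. Preparation 4 stood apart in all 4 groups. Its summed fibroblast markers were 14800 to 21100 CPM against 35400 to 47400 in the other preparations, and its summed macrophage and leukocyte markers (12 genes, 9 of them tested, none at 0 in every library) were 842 to 1370 against 380 to 767. Ptprc, which marks leukocytes, was 8.26 to 25.9 CPM there and 2.92 to 6.33 elsewhere. The part of these cells in the results was not tested, and in bulk RNA fewer cells of a type cannot be told apart from less RNA per cell. Results are therefore also given without preparation 4, a comparison chosen after seeing the data.

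Promoter sequences are shown for the ligand genes Il6, Lif and Il11, for the shared receptor gene Il6st, which moved the opposite way, and for Socs3, a STAT3 target. They come from RefSeq on build GRCm38.p6, an earlier build than the one behind the counts, and 8 of the 9 genes matched; Clcf1 is named only. Each line gives bases upstream of the annotated start, 5′ to 3′ on the gene's strand, without bases of annotated exons. Capitals mark matches, on either strand, to AP-1 (TGANTCA), NF-kB (a motif of 10 letters) or STAT (TTCNNNGAA) motifs. The stretches are Il6 at chr5:30012864-30013113 (plus strand), Lif at chr11:4257318-4257556 (plus), Il11 at chr7:4778142-4778391 (minus), Il6st at chr13:112463820-112464069 (plus) and Socs3 at chr11:117969452-117969616 (minus).
Il6: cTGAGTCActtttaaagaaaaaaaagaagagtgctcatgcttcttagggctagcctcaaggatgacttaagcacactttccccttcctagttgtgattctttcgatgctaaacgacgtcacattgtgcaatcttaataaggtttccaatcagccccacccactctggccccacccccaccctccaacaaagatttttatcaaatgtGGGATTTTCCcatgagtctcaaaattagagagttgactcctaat
Lif: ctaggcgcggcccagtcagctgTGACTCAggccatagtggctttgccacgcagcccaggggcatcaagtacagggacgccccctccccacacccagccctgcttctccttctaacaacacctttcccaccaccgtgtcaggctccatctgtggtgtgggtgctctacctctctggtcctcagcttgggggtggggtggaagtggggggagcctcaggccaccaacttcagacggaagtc
Il11: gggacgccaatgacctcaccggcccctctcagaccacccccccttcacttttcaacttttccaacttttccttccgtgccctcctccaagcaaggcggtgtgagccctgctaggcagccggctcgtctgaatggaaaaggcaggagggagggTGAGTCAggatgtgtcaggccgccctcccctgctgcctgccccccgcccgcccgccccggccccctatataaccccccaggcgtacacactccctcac
Il6st: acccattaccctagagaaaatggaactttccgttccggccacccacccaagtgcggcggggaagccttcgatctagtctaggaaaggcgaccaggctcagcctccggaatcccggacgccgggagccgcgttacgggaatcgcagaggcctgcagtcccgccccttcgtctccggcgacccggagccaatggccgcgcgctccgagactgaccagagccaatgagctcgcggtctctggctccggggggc
Socs3: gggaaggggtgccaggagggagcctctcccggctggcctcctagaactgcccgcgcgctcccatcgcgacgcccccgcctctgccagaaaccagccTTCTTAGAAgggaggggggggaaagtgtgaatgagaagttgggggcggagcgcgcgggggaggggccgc

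The AP-1 letters stand 249 to 243 bases before the start in Il6, 228 to 222 in Lif and 98 to 92 in this Il11 window. The other Il11 window in the table, at an alternative start, held no match. Of all 32851 promoter windows of 250 bases, 6.75% held an AP-1 match. The NF-kB match of Il6 lies 44 to 35 bases before the start (1.41% of windows hold one) and the STAT match of Socs3 154 to 146 bases before it (7.02% of windows). Neither the Il6st nor the Osmr window held any of the 6 motifs searched, which also included CRE (TGACGTCA; 1.55% of windows), SMAD (CAGACA; 17.1%) and TEAD (GGAATG; 12.6%). A TEAD match was found for Il11ra1 and Stat3, and no member held a CRE or SMAD match. AP-1, CRE and STAT letters read alike on both strands. These matches describe letters in a window, not binding.

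TGF-beta raised the ligand genes Lif and Il11 and lowered all 3 receptor genes, Socs3 and Stat3, under either virus. In GFP cells 2 of the 9 genes rose, 5 fell and 2, Il6 and Clcf1, did not pass the test, where 29.1% of all tested genes were called (13.8% higher, 15.3% lower). Cre cells gave the same counts for the same genes, against 30.3% of all genes (14% higher, 16.3% lower). The median log2 difference of the 9 genes was -0.64 in GFP and -0.70 in Cre cells, and over all genes -0.02 and 0.02. The levels of the 2 groups did not overlap for 5 of the 9 genes in GFP cells (29.8% of all genes) and for 6 in Cre cells (28.3%). Without preparation 4 all 9 were called in both, 4 higher and 5 lower, where the shares of all genes were 39.9% in GFP cells (18.6% higher, 21.3% lower) and 42.7% in Cre cells (20.2% higher, 22.5% lower). Endothelial and leukocyte markers were also lower with TGF-beta. The summed 8 endothelial markers, all tested, were 33.6 to 46.7 CPM in GFP and 15.2 to 25.5 in GFP_TGFB cells, and 31.5 to 45.3 and 14.1 to 20.6 CPM in Cre and Cre_TGFB cells. The summed leukocyte markers of preparations 1 to 3 were 529 to 767 CPM without and 380 to 557 CPM with TGF-beta. Of these Lyz2 alone was 282 to 537 CPM. Summed cardiomyocyte markers there were 10.2 to 23.6 CPM without and 3.12 to 6.01 CPM with it. In preparation 4 they were 5.17 to 8.01 and 6.4 to 12.3 CPM. Ranges of the fibroblast, mesothelial, and pericyte and smooth muscle sums overlapped in preparations 1 to 3, as did those of the leukocyte sums. Within every preparation, however, the fibroblast and the pericyte and smooth muscle sums were lower with TGF-beta under both viruses. In preparations 1 to 3 fibroblast sums were 41600 to 47400 CPM without and 35400 to 44700 with it. Mesothelial sums were also lower, except in Cre cells of preparation 4 (5.26 CPM without and 5.33 with it). The part of these markers in the members' changes was not tested.

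**Figure D1:**
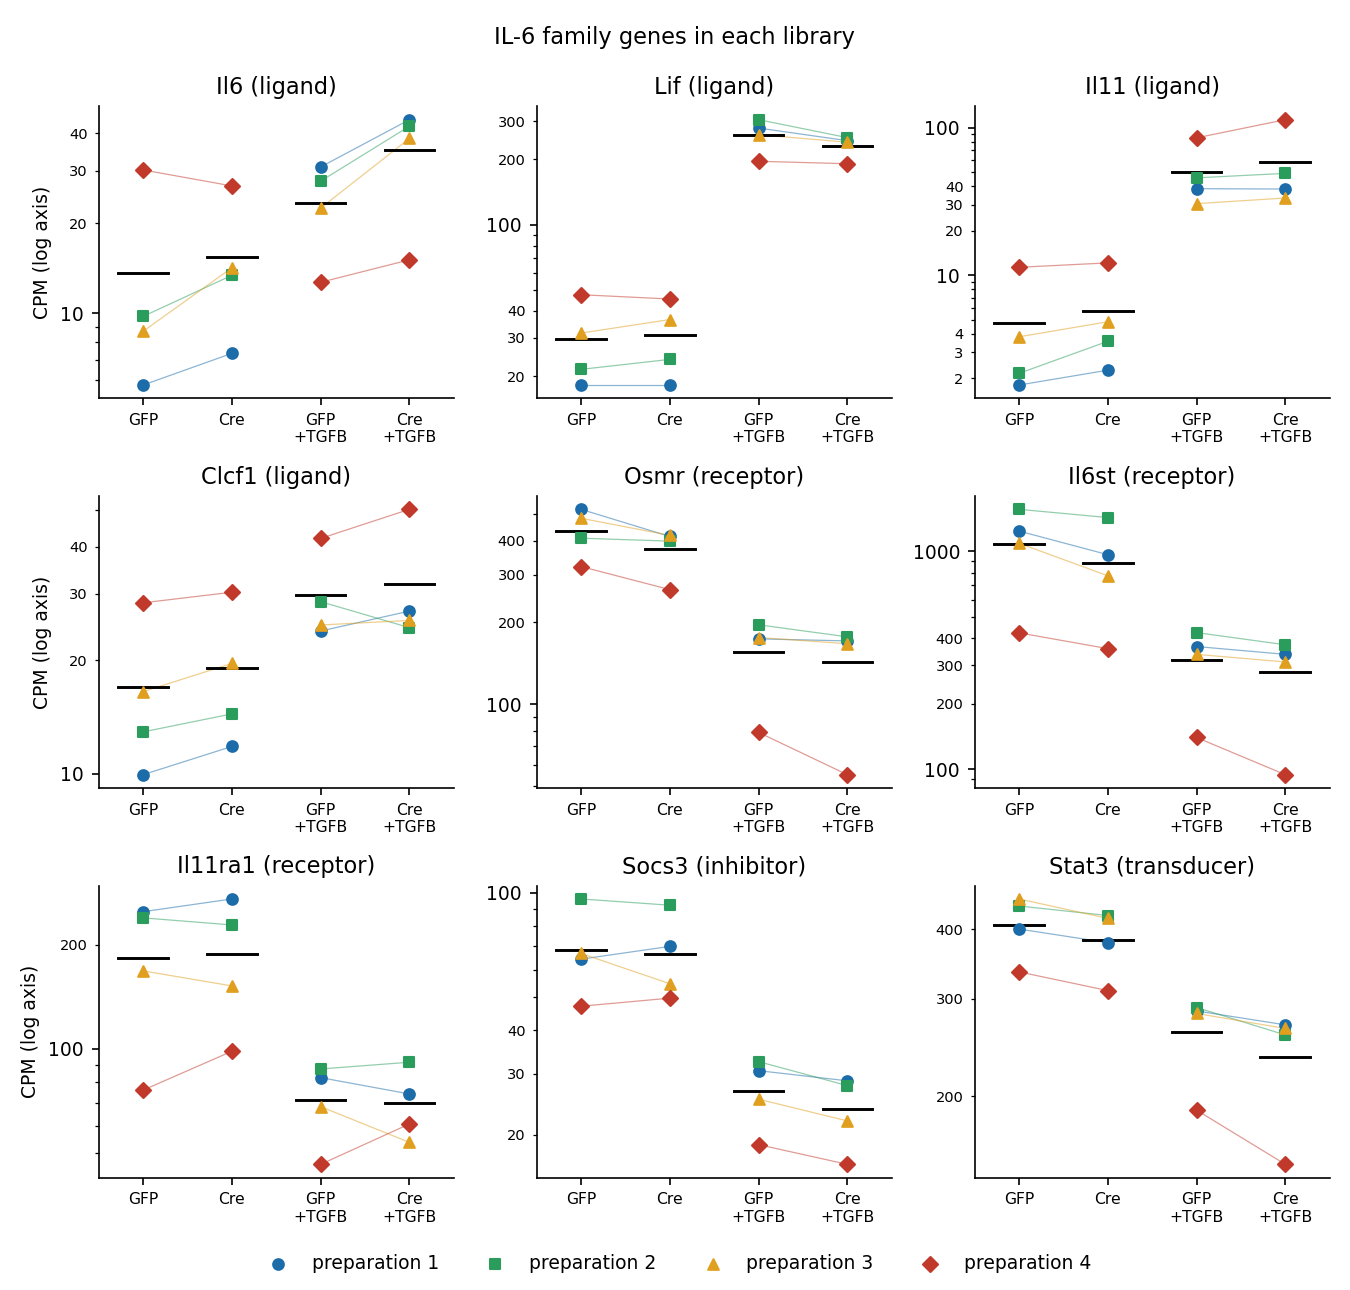
Each panel plots 1 gene in CPM on a log axis for the 16 libraries by group, with a bar at the group mean and lines joining the GFP and Cre libraries of a preparation. Lif and Il11 sit higher in every TGF-beta library than in any library without it, and Il6 in preparation 4 is the only ligand value that falls with TGF-beta.

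Lif (ENSMUSG00000034394) encodes leukemia inhibitory factor. Its level in GFP cells of preparations 1 to 4 was 18.2, 21.5, 31.6 and 47.5 CPM, and with TGF-beta 279, 305, 260 and 196 CPM. In Cre cells it was 18.2, 23.9, 36.5 and 45.4 CPM without and 244, 252, 240 and 191 CPM with TGF-beta. Every treated library lay above every untreated one, and preparation 4 was the highest without TGF-beta and the lowest with it. The log2 difference was 3.13 ± 0.32 in GFP cells (SE; adjusted p = 4.44e-06, edgeR), 8.76-fold, and 2.90 ± 0.31 in Cre cells (adjusted p = 7.95e-06), 7.49-fold.

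Il11 (ENSMUSG00000004371), the interleukin-11 gene, had the lowest level of the ligands without TGF-beta. GFP cells held 1.8, 2.16, 3.82 and 11.3 CPM in preparations 1 to 4, from 48 to 222 counts, and GFP_TGFB cells 38.5, 45.6, 30.5 and 85.1 CPM. Cre cells held 2.27, 3.56, 4.83 and 12.1 CPM and Cre_TGFB cells 38.3, 48.9, 33.3 and 113 CPM. Preparation 4 was the highest in each group, and the treated and untreated libraries did not overlap. The rise was 3.42 ± 0.66 on the log2 scale in GFP cells (adjusted p = 0.00127, edgeR), 10.7-fold, with a 95% interval of 2.01 to 4.82. In Cre cells it was 3.36 ± 0.65 (adjusted p = 0.00125), 10.2-fold.

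Il6 (ENSMUSG00000025746), the founding cytokine of the family, split by preparation. In GFP cells it was 5.75, 9.76, 8.7 and 30.2 CPM without TGF-beta and 30.9, 27.7, 22.5 and 12.7 CPM with it. In Cre cells it was 7.34, 13.4, 14.2 and 26.7 CPM without and 44.5, 42.3, 38.5 and 15.1 CPM with TGF-beta. Preparations 1 to 3 were higher with TGF-beta under both viruses, and preparation 4, the highest without it, was lower, so the groups overlapped. Within preparations the log2 differences in GFP cells were 2.42, 1.51, 1.37 and -1.25, and in Cre cells 2.60, 1.66, 1.44 and -0.82. Over all 4 the difference was 0.79 ± 0.50 in GFP cells (adjusted p = 0.263, edgeR; 95% interval -0.28 to 1.87) and 1.19 ± 0.50 in Cre cells (adjusted p = 0.0872), and neither passed. DESeq2 gave the Cre value an adjusted p of 0.0458. Without preparation 4 the difference of Il6 was 1.74 in GFP cells (adjusted p = 9.4e-05, edgeR) and 1.86 in Cre cells (adjusted p = 4.49e-05). Leaving out only the GFP library of preparation 4 was enough for a call in both (1.53, adjusted p = 0.0179, and 1.20, adjusted p = 0.0307), and in Cre cells so was leaving out its Cre (adjusted p = 0.032) or its Cre_TGFB library (adjusted p = 0.0424). The summed leukocyte markers of preparation 4 were 1290 CPM in GFP and 842 in GFP_TGFB cells, against 620 to 767 and 396 to 557 CPM in the others, and their part in the Il6 values was not tested.

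Clcf1 (ENSMUSG00000040663) encodes cardiotrophin-like cytokine factor. It was 9.93, 12.9, 16.5 and 28.4 CPM in GFP cells and 23.9, 28.6, 24.8 and 42.1 CPM in GFP_TGFB cells. In Cre cells it was 11.8, 14.4, 19.6 and 30.3 CPM and in Cre_TGFB cells 27.0, 24.4, 25.5 and 50.3 CPM. Preparation 4 was again the highest in each group, its untreated level exceeded the treated level of at least 1 other preparation, and all 4 preparations were higher with TGF-beta under both viruses. The log2 difference was 0.82 ± 0.36 in GFP (adjusted p = 0.0964, edgeR) and 0.74 ± 0.35 in Cre cells (adjusted p = 0.124). With the preparation as a block both passed, at 0.89 (adjusted p = 5.79e-05) and 0.77 (adjusted p = 0.000169), in a fit that called 49.1% of all genes in GFP cells (22.6% higher, 26.5% lower) and 52.5% in Cre cells (25.2% higher, 27.3% lower). By that fit 3 of the 9 members rose and 5 fell under each virus. Without preparation 4 the Clcf1 differences were 0.98 (adjusted p = 0.00136) and 0.77 (adjusted p = 0.00583), and leaving out the untreated library of preparation 4 alone also gave calls (1.19, adjusted p = 0.0182, in GFP and 1.07, adjusted p = 0.0342, in Cre cells).

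**Figure D2:**
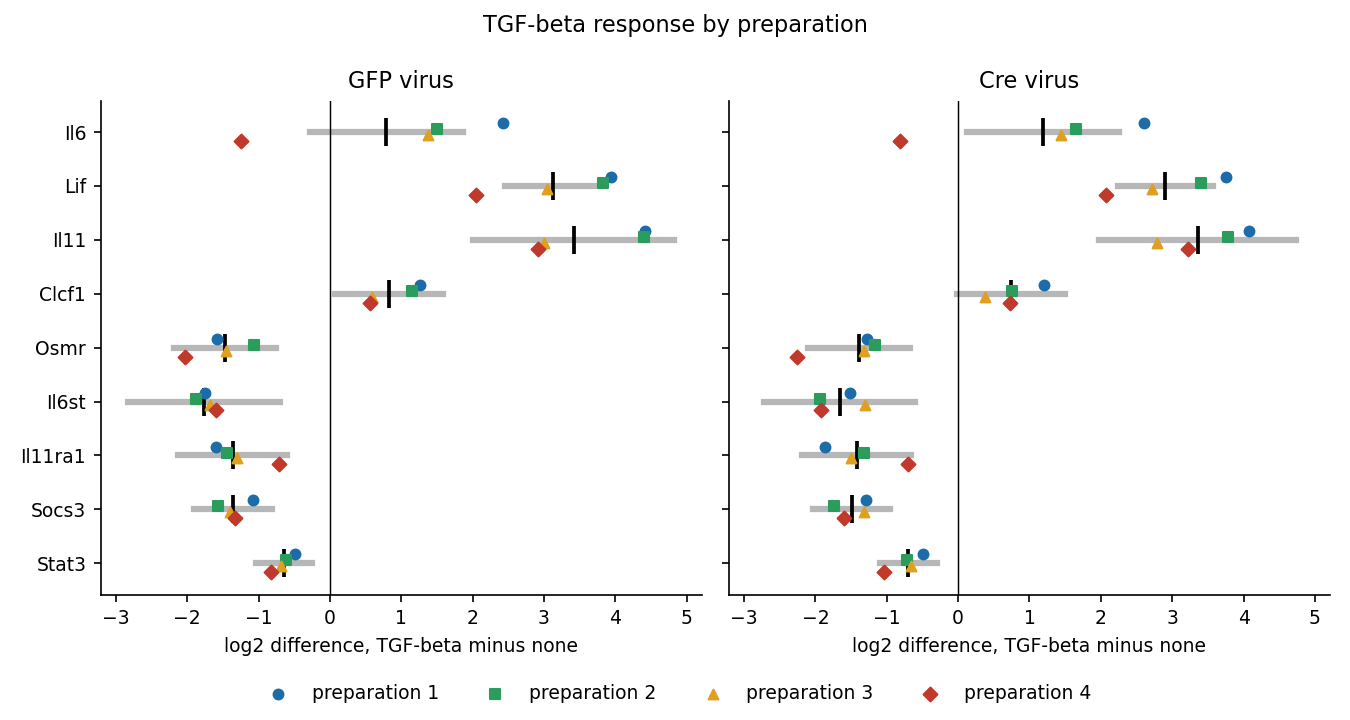
Points are the log2 difference between TGF-beta and none within each preparation, for GFP (left) and Cre cells (right). The vertical bar is the fitted difference over 4 preparations and the grey line its 95% interval, from the fit without the block. That fit leaves out the pairing that the points show. Il6 in preparation 4, at -1.25 and -0.82, is the only member whose sign differs between preparations.

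The ligand genes were also set beside each other per length, as reads per kilobase of exon and M counts (RPKM). Their sum was 19.1 ± 11.7 RPKM in GFP, 21.2 ± 10.2 in Cre, 101 ± 8.53 in GFP_TGFB and 104 ± 10.3 in Cre_TGFB cells (SD, n = 4), and the untreated libraries, from 10.0 to 36.2 RPKM, did not reach the lowest treated one at 90.2 RPKM. Lif made up 37.9 ± 5.70% of this sum in GFP and 59.1 ± 10.1% in GFP_TGFB cells. The share of Il11 was 10.5 ± 3.18% without and 23.6 ± 11.1% with TGF-beta, and that of Il6 27.2 ± 6.01% and 9.55 ± 3.14%. Clcf1 held 24.3 ± 2.5% and 7.75 ± 2.08%. In Cre cells the share of Lif was 34.6 ± 3.97% and 51.8 ± 9.84%, and that of Il11 11.8 ± 3.17% and 26 ± 13.6%. The highest Il11 shares, 40.0% and 46.2%, were those of preparation 4 with TGF-beta. These shares were not tested.

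**Figure D3:**
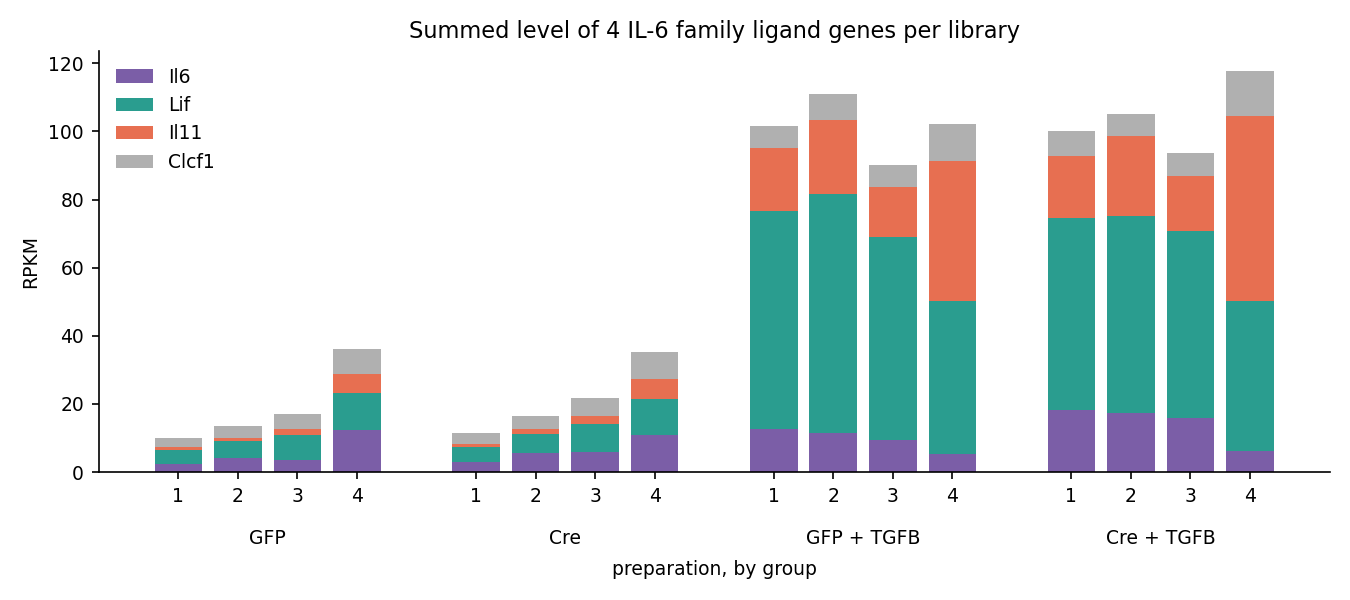
Bars stack the RPKM of the 4 ligand genes in each library, by group and preparation, from 0. Treated libraries reach 90.2 to 118 RPKM and untreated ones 10.0 to 36.2, and Lif (green) takes most of the treated bars except those of preparation 4, where Il11 (orange) is comparable or larger.

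The receptor genes fell. Il6st (ENSMUSG00000021756), the shared signalling chain, was 1240, 1560, 1090 and 423 CPM in GFP cells and 366, 424, 337 and 140 CPM in GFP_TGFB cells of preparations 1 to 4. In Cre cells it was 966, 1430, 773 and 358 CPM and with TGF-beta 337, 373, 311 and 94.5 CPM. Preparation 4 was lowest in each group, and its untreated level lay within the treated range, so the groups overlapped although all 4 preparations were lower with TGF-beta. The log2 difference of Il6st was -1.76 ± 0.50 in GFP cells (adjusted p = 0.0150, edgeR), a 3.39-fold fall, and -1.66 ± 0.50 in Cre cells (adjusted p = 0.0201), 3.16-fold. With no filter on low counts the Il6st differences stayed at -1.77 and -1.66 but were not called (adjusted p = 0.0521 in GFP and 0.0665 in Cre cells), and the Cre call was lost without the Cre library of preparation 2 (-1.32, adjusted p = 0.073). With the preparation as a block they were -1.73 (adjusted p = 3.09e-09) and -1.67 (adjusted p = 3.68e-09).

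Osmr (ENSMUSG00000022146), the signalling chain for oncostatin M, was 521, 408, 483 and 321 CPM in GFP and 174, 196, 176 and 78.8 CPM in GFP_TGFB cells. In Cre cells it was 414, 398, 418 and 264 CPM and in Cre_TGFB cells 171, 177, 167 and 55.1 CPM. No treated library reached an untreated one, and preparation 4 was lowest throughout. Osmr changed by -1.47 ± 0.34 (log2, SE) in GFP cells, 2.78-fold lower (adjusted p = 0.00386, edgeR), and by -1.39 ± 0.33 in Cre cells, 2.62-fold lower (adjusted p = 0.00553).

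Il11ra1 (ENSMUSG00000073889) encodes the receptor chain that binds IL-11. Its counts are uncertain because it has a near copy, Il11ra2, listed at 0 in all libraries, and how reads shared by near copies were counted is not known. GFP cells held 249, 239, 168 and 76 CPM and GFP_TGFB cells 82.6, 87.5, 68.1 and 46.4 CPM. Cre cells held 271, 228, 152 and 98.4 CPM and Cre_TGFB cells 74.1, 91.5, 53.7 and 60.7 CPM. The groups overlapped in GFP cells through preparation 4 and did not overlap in Cre cells. For Il11ra1 the log2 difference was -1.36 ± 0.36 in GFP cells (adjusted p = 0.00965, edgeR) and -1.42 ± 0.36 in Cre cells (adjusted p = 0.00748).

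Socs3 (ENSMUSG00000053113) and Stat3 (ENSMUSG00000004040) act inside the cell. Socs3 was 64.3, 96.0, 66.8 and 47.0 CPM in GFP, 30.6, 32.5, 25.3 and 18.7 in GFP_TGFB, 70.0, 92.1, 54.6 and 49.6 in Cre and 28.6, 27.7, 21.9 and 16.4 CPM in Cre_TGFB cells. Treated and untreated libraries did not overlap. The change in Socs3 was -1.36 ± 0.26 on the log2 scale in GFP cells (adjusted p = 0.00104, edgeR) and -1.49 ± 0.26 in Cre cells (adjusted p = 0.000468). Stat3 was 400, 440, 453 and 335 CPM in GFP, 285, 289, 282 and 189 in GFP_TGFB, 378, 423, 418 and 310 in Cre and 269, 258, 265 and 151 CPM in Cre_TGFB cells. Its groups did not overlap either, and its change was the smallest of the called members. For Stat3 it was -0.64 ± 0.19 in GFP cells (adjusted p = 0.0171, edgeR) and -0.70 ± 0.19 in Cre cells (adjusted p = 0.0105). The GFP call of Stat3 was lost without the GFP_TGFB library of preparation 4 (-0.51, adjusted p = 0.052). These counts measure RNA only, and STAT3 phosphorylation was not measured.

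By RPKM, the order of levels without TGF-beta put Il6st first (96.9 ± 43.1 RPKM in GFP cells), followed by Stat3 (42.7 ± 5.55), Il11ra1 (40.9 ± 17.9), Osmr (35.8 ± 7.31) and Socs3 (23.7 ± 7.03), then Lif (6.83 ± 3.03), Il6 (5.60 ± 4.61), Clcf1 (4.45 ± 2.13) and Il11 (2.29 ± 2.12). The lowest library of Socs3, 16.3 RPKM, was above the highest of Lif, 10.9, and every other pair of neighbours overlapped. In GFP_TGFB cells Lif stood first at 59.7 ± 10.6 RPKM, its lowest library at 45.1 above the highest of Il6st at 38.2, and Il11 reached 24.0 ± 11.6 RPKM, with all later neighbours overlapping. Cre cells without TGF-beta had the same break between Socs3 and Lif, and in Cre_TGFB cells Lif (53.3 ± 6.30 RPKM) and Il11 (28.1 ± 17.8) overlapped.

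None of the 9 genes was called between Cre and GFP by this test, without or with TGF-beta (0% of all genes called in each). At an unadjusted p under 0.05 edgeR had 0 of the 9 in each comparison, and 169 and 268 of all genes. That fit leaves out the pairing by preparation. With the preparation as a block edgeR had 1 of the 9 in each, and 882 and 2039 of all genes. DESeq2 called 3 and 0 genes in all, none of the 9. Group ranges overlapped for all 9 genes in both comparisons (1.47% and 1.58% of all genes did not overlap). The widest intervals were those of Il11, whose log2 difference was 0.28 (95% interval -1.05 to 1.62) in untreated cells, and of Il6, at 0.19 (-0.88 to 1.26) without and 0.58 (-0.48 to 1.64) with TGF-beta. Il6 was higher with Cre in 3 of the 4 untreated pairs and in all 4 treated ones (0.53, 0.61, 0.77 and 0.25). The narrowest was that of Stat3, at -0.09 (-0.49 to 0.30) without and -0.15 (-0.54 to 0.25) with TGF-beta. Without preparation 4, 0 of the 9 were called either, against 0.112% of all genes without TGF-beta and 0% with it. With the preparation as a block the interval of Il11 was -0.28 to 0.89 and that of Stat3 -0.27 to 0.08 without TGF-beta.

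Il6st was lower with Cre in 4 of 4 preparations in both media, by log2 differences of -0.36, -0.13, -0.49 and -0.24 without TGF-beta and -0.12, -0.18, -0.12 and -0.57 with it. The fitted values for Il6st were -0.29 ± 0.49 (adjusted p = 0.9997, edgeR) and -0.18 ± 0.49 (adjusted p = 0.9996). With the preparation as a block its unadjusted p was 0.00798 and 0.0253, but after adjustment over all genes it did not pass (adjusted p = 0.636 and 0.329), and 0 of the 9 members were called, in a fit that called 0.17% of all genes without TGF-beta (0.164% higher, 0.00654% lower) and 0.0654% with it. Osmr and Stat3 were likewise lower with Cre in all 4 preparations of both media, and neither passed in any fit.

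**Figure D4:**
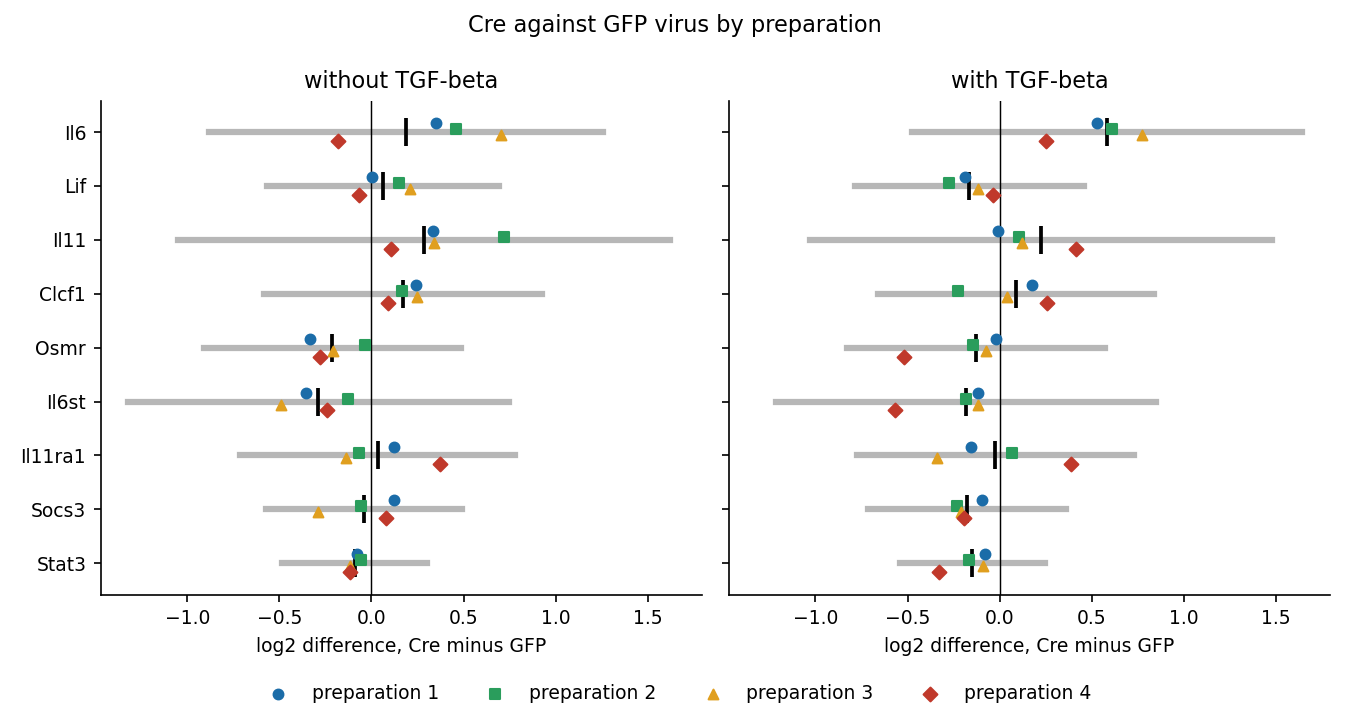
Points are the log2 difference between Cre and GFP within each preparation, without (left) and with TGF-beta (right). The vertical bar is the fitted difference and the grey line its 95% interval, from the fit without the block, which includes 0 for all 9 genes.

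The TGF-beta responses of Cre and GFP cells were compared in an interaction test. None of the 9 genes was called (0% of all genes), with unadjusted p from 0.582 for Il6 to 0.945 for Il11. The difference of responses was 0.40 ± 0.71 for Il6 (95% interval -1.11 to 1.90), -0.23 ± 0.42 for Lif (-1.11 to 0.66) and -0.06 ± 0.86 for Il11 (-1.88 to 1.76). For Socs3 it was -0.14 ± 0.36 (-0.89 to 0.62). With the preparation as a block the intervals of Il11 (-0.91 to 0.59) and Socs3 (-0.42 to 0.14) were narrower and that of Il6 (-1.21 to 1.96) was not, and none of the 9 genes was called.

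Other genes of the pathway were taken from lists chosen with earlier results of these data known. Among 8 further ligand genes 4 were tested, and in both viruses 0 rose, 1 fell and 3 did not pass (median log2 -0.12 in GFP and -0.21 in Cre cells; 15.3% and 16.3% of all genes were called lower). Ebi3, a subunit of interleukin-27 and interleukin-35, changed by -1.72 ± 0.61 in GFP cells (adjusted p = 0.0467) and -1.83 ± 0.61 in Cre cells (adjusted p = 0.0344), from levels of at most 1.47 CPM. Osm, oncostatin M, was at most 1.46 CPM in all libraries and did not pass in GFP cells (1.38 ± 0.62, adjusted p = 0.108; 0.0206 with the preparation as a block) or in Cre cells (-0.09 ± 0.59). Ctf1, cardiotrophin, did not pass either (-0.23 ± 0.36, adjusted p = 0.685). Cntf and Il27 were too low to test, and Ctf2 and Il31 were at 0 in all libraries.

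Of 6 further receptor genes 4 were tested: 3 fell in both viruses, and the fourth, Cntfr, rose in GFP cells and did not pass in Cre cells (median log2 -1.69 in GFP and -1.55 in Cre cells). The shares of all genes called lower were 15.3% in GFP and 16.3% in Cre cells, and 13.8% and 14% were called higher. Lifr, the receptor chain that binds LIF, was 23.9 ± 10.7 CPM in GFP and 3.46 ± 1.17 in GFP_TGFB cells. Its log2 difference was -2.80 ± 0.38 (adjusted p = 6.69e-05, edgeR), and in Cre cells -2.39 ± 0.37 (adjusted p = 0.000217), lower in 4 of 4 preparations each. Il6ra, which binds IL-6, was 11.3 ± 1.73 CPM and 3.16 ± 0.368 with TGF-beta, a log2 difference of -1.84 ± 0.16 (adjusted p = 9.42e-07), and in Cre cells -1.69 ± 0.16 (adjusted p = 1.75e-06). Il27ra, a chain of the interleukin-27 receptor, changed by -1.55 ± 0.25 and -1.41 ± 0.25. Cntfr, the chain that binds ciliary neurotrophic factor, rose from 1.89 ± 0.541 to 3.59 ± 0.496 CPM in GFP cells (0.92 ± 0.25, adjusted p = 0.0128), and in Cre cells the difference was 0.56 ± 0.25 (adjusted p = 0.101). The difference between these Cntfr responses was -0.36 ± 0.35 and did not pass. Lif and its receptor gene Lifr thus moved in opposite directions in the same cultures, as did Il11 and Il11ra1. Il31ra and Il11ra2 were not tested.

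Of 20 further JAK-STAT transducers and inhibitors, all tested, 0 rose and 10 fell in GFP cells and 0 rose and 9 fell in Cre cells (medians -0.43 and -0.43), where 15.3% and 16.3% of all genes were called lower. With the preparation as a block these were 13 lower in GFP cells (26.5% of all genes), and 1 higher, Socs6, and 14 lower in Cre cells (25.2% and 27.3% of all genes). Socs1, an inhibitor of JAK kinases, was 3.84 ± 0.83 CPM in GFP and 1.8 ± 0.364 in GFP_TGFB cells, a log2 difference of -1.09 ± 0.21 (adjusted p = 0.00109, edgeR). Socs2, of the same family, changed by -0.63 ± 0.11 (adjusted p = 0.000465), and the phosphatase gene Ptpn1 by -0.68 ± 0.13 (adjusted p = 0.00109). No gene of these lists was called by edgeR without the block in a comparison of Cre with GFP. With the block 1 of these 20 genes was called higher with Cre without TGF-beta (0.164% of all genes), and 0 with TGF-beta. No gene of the other lists was called with the block in these comparisons.

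Of 22 known STAT3 target genes, all tested, 4 rose, 12 fell and 6 did not pass in each virus (medians -0.79 in GFP and -0.85 in Cre cells). Of all genes 13.8% were called higher and 15.3% lower in GFP cells, and 14% and 16.3% in Cre cells. With the preparation as a block 5 rose and 13 fell in GFP cells (22.6% and 26.5% of all genes). In Cre cells 5 rose and 14 fell by that fit (25.2% and 27.3% of all genes). Steap4, a metalloreductase gene, changed by -4.20 ± 0.51 (log2) in GFP cells (adjusted p = 2.16e-05, edgeR), and Lcn2, the lipocalin that binds iron carriers, by -3.18 ± 0.51 (adjusted p = 0.000264). Steap4 was 8.45 CPM in GFP and 0.48 CPM in GFP_TGFB cells, the latter from 7 to 13 counts. Lcn2 was 2.16 and 0.243 CPM, the latter from 3 to 9 counts, so the sizes of both changes rest on low counts. Vegfa, the angiogenic growth factor, was 171 ± 25.4 CPM and 588 ± 57.5 with TGF-beta, a rise of 1.78 ± 0.12 (adjusted p = 9e-08). Gadd45b, a stress-response gene, rose by 2.23 ± 0.32 (adjusted p = 9.38e-05). Many of these genes answer to other factors as well, so the list does not isolate STAT3.

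**Figure D5:**
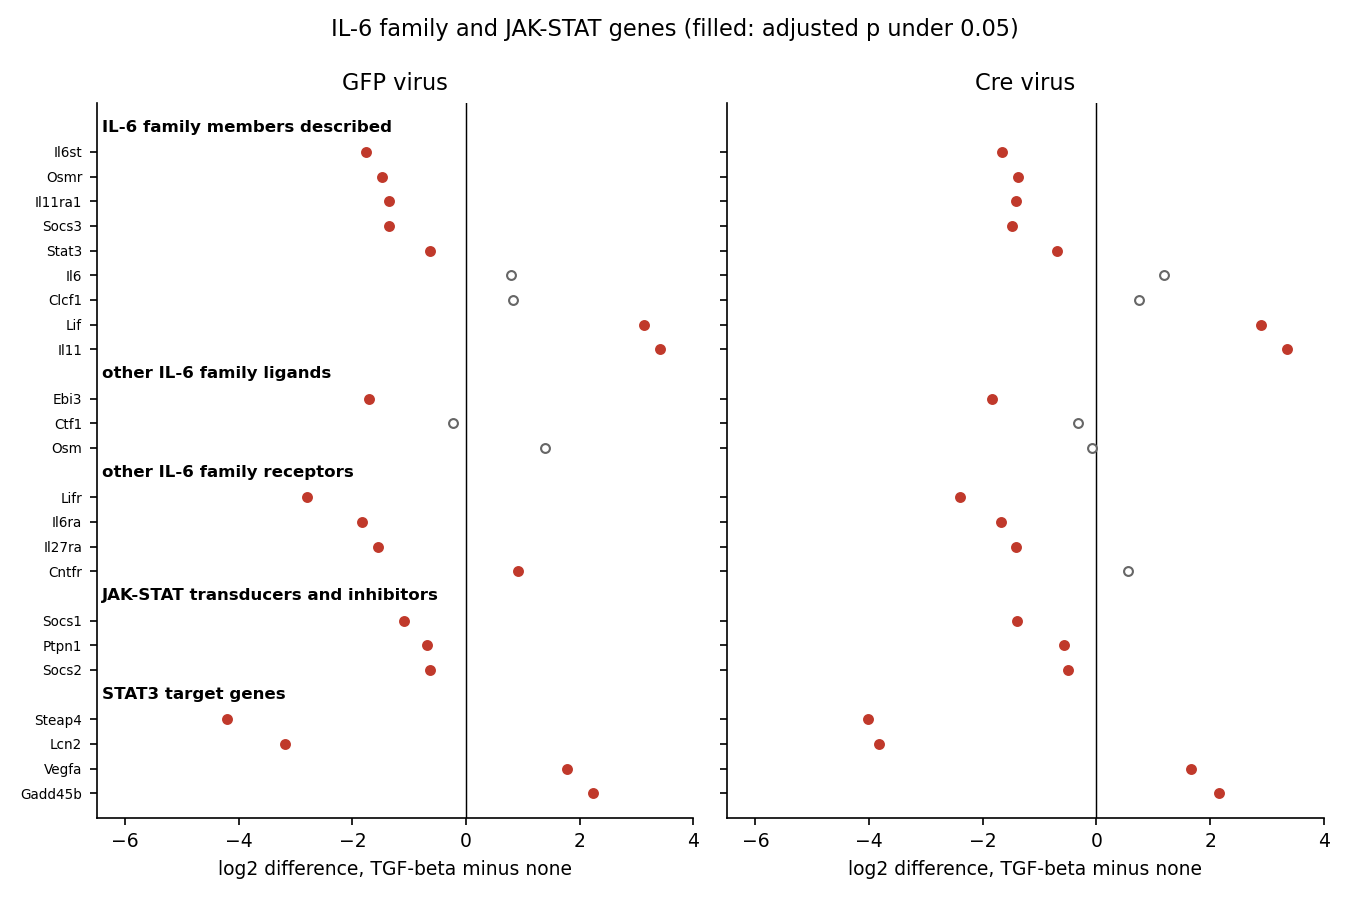
Points are fitted log2 differences between TGF-beta and none in GFP (left) and Cre cells (right) for the 9 members and the genes of 4 related lists that the text names, filled where the adjusted p was under 0.05. Receptors other than Cntfr lie left of 0 in both panels, while Lif and Il11 lie at 2.90 or higher.

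The genes whose log2 CPM followed each member most closely over the 16 libraries were found among 11273 genes with a mean of at least 2 CPM. For Lif these were Pik3cb (Pearson r = 0.995) and Rph3a (0.992), and for Il11 C1qbp (0.994) and Farsb (0.993). For Il6, whose pattern over preparations differed from the rest, they were Tpm4 (0.924) and Slc30a9 (0.891). Clcf1 was nearest to Efhd2 (0.978) and Nudt5 (0.966). The receptor gene Osmr was nearest to Ptpra (0.995) and Lama4 (0.994), Il6st to Reck (0.993) and Arsa (0.991), and Il11ra1 to Maged2 (0.982). Socs3 was nearest to Pygl (0.988) and Anpep (0.987), and Stat3 to Susd6 (0.994) and Pcdhgc3 (0.991). These libraries share treatment groups and preparations, which alone raise such values, so they are a description.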

How the data were processed

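The values are raw gene counts as the authors deposited them, in 1 table. FastQC 0.10.1, HTSeq 0.10.0 and build mm39 stand in the submitters' processing notes. Aligner, annotation and strandedness were not given in the sources used here. Genes that overlap, are antisense or have near copies are therefore uncertain. Symbols and exon lengths came from GENCODE M21 (52133 of 55414 identifiers matched, 99.9% of counts).

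The counts were filtered with filterByExpr (minimum count 10, minimum total 15; 15285 genes kept, 40129 not tested) and scaled with TMM factors (0.908 to 1.12). CPM and RPKM use these scaled totals. Groups were compared by the quasi-likelihood test of edgeR 4.0.16 (with limma 3.58.1 in R 4.3.3), robust, with 1 mean per group over all 16 libraries and p-values adjusted by Benjamini-Hochberg over all genes, called under 0.05. The SE was taken from the log2 difference and its F value, and the prior count was 0.125. Within groups the libraries differed by more than sampling noise (chi-square 6.59 to 214 per gene). The script was tested on simulated data.

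Libraries of 1 replicate number carry the same preparation code and sex in their names, so numbers pair the libraries. Deviations from group means correlated at 0.323 to 0.838 in 24 same-numbered pairs, against a median of -0.13 in 72 others. A blocked fit, by preparation, is given where it changes the call of a member or the counts of a list. P-values reflect the spread of these 4 preparations only. Members, gene lists and alternatives (the block, DESeq2 1.42.0, other size factors, filters and left-out libraries) were chosen with earlier results of these data known. The named genes were the 9 members, all tested genes of the ligand and receptor lists, the 4 genes with the smallest adjusted p in TGF-beta against none in GFP cells from each other list, the 2 genes most like each member, Has2 and Acta2. A few genes that this rule names are not reported here.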

Additional observations from a re-analysis of the deposited data

Results flagged for a closer look

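In 36 sets of 4 libraries (9 genes in 4 groups), 6 had 1 library whose gap to the nearest other passed Dixon's 95% critical value for 4 samples, and chance gives about 1 in 20 sets. All 6 flagged values were from preparation 4. The sets share the same 4 preparations and are not independent (Osmr and Stat3 had a Pearson r of 0.982 over the 16 libraries). The 6 are therefore not separate departures, and 1 in 20 is not a strict yardstick for them. Il6 in GFP cells was 30.2 CPM against 5.75 to 9.76 in the others, and Clcf1 in Cre_TGFB cells was 50.3 CPM against 24.4 to 27.0. Osmr was low in Cre cells (264 CPM against 398 to 418) and in Cre_TGFB cells (55.1 CPM against 167 to 177). Stat3 was low in GFP_TGFB cells (189 CPM against 282 to 289) and in Cre_TGFB cells (151 CPM against 258 to 269).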

How the results depend on the processing

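Over the 9 genes, 5 comparisons and 26 alternatives, 1064 values kept their direction and side of the threshold, 79 changed sign, 23 gained and 4 lost a call. All 79 sign changes were in comparisons of Cre with GFP or of the responses, where no gene was called. In the TGF-beta comparisons 441 values were kept, 23 gained a call (Il6 or Clcf1) and 4 lost it (Il6st 3 times, Stat3 once). Members called there ranged from 6 to 9 with a library or preparation left out.

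With the preparation (replicate) as a block, all genes called in Cre against GFP were 26 without TGF-beta (25 higher, 1 lower) and 10 with it, against 0 and 0. In TGF-beta against none they were 7498 against 4445 in GFP and 8030 against 4629 in Cre cells. Il11ra1 with TGF-beta was 0.014 with the block (-0.02 without it). Beyond Clcf1 the block changed no other call of a member. Without TGF-beta DESeq2 called 3 genes, and 17 were called without preparation 4, where Il11ra1 was -0.014 (0.03 with it).

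Leaving out libraries or preparations in turn gave 0 to 114 genes in Cre against GFP without TGF-beta, 0 to 232 with it, 3361 to 8051 in TGF-beta against none in GFP and 3472 to 8586 in Cre cells, the highest always without preparation 4 and with the block. Ranges with sign changes follow. For Cre against GFP without TGF-beta Il6 ranged from -0.223 to 0.936, Lif from -0.185 to 0.385, Il11 from -0.416 to 1.152, Clcf1 from -0.152 to 0.541, Il11ra1 from -0.221 to 0.246 and Socs3 from -0.24 to 0.166. With TGF-beta Il11 ranged from -0.316 to 0.609, Clcf1 from -0.221 to 0.301, Osmr from -0.349 to 0.14, Il6st from -0.429 to 0.105, Il11ra1 from -0.182 to 0.119 and Stat3 from -0.275 to 0.016. The difference of responses ranged for Il6 from -0.328 to 0.832, Lif from -0.527 to 0.044, Il11 from -0.919 to 0.65, Clcf1 from -0.44 to 0.254, Osmr from -0.136 to 0.353, Il6st from -0.141 to 0.439, Il11ra1 from -0.244 to 0.223, Socs3 from -0.345 to 0.06 and Stat3 from -0.184 to 0.107. With the block, sign changes gave Il11ra1 -0.026 (without preparation 4) and Socs3 0.047 (without 3) in Cre against GFP without TGF-beta, and Il11ra1 0.062 (without 1) with it. In the difference of responses they gave Osmr -0.031, Il6st -0.008 and Il11ra1 0.035 (without 1) and Il6st -0.063 (without 3). Il11ra1 with TGF-beta reached 0.093 without the GFP_TGFB library of preparation 2, and 6972 genes were called in Cre cells with the block and without preparation 3. The cause was not tested.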

Other observations

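Genes with the pattern of Il6 over preparations were counted. Of 15285 tested genes, 384 were over 2-fold higher with TGF-beta in preparations 1 to 3 under both viruses, and 2 of these (0.521%), Il6 and Lama1, a laminin chain gene, were lower in preparation 4 under both. This search was made after the Il6 values were seen and its limits were set from them. Il6 therefore had to be among the genes counted, and the share does not measure how unusual Il6 is.

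Relative to the mean of the other preparations on the log2 scale, preparation 4 was higher for Il11 in all 4 groups (1.17 to 2.19) and for Clcf1 (0.71 to 1.15). For Il6st it was lower in all 4 (-1.85 to -1.42), as for Osmr (-1.64 to -0.55). Lif was higher without TGF-beta (1.04 in GFP and 0.85 in Cre cells) and lower with it (-0.52 and -0.36).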
